A study of Arabidopsis thaliana with 15 samples.

Results

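A set of 10 nuclear genes of *Arabidopsis thaliana* was followed through high light (HL) and recovery (R). These encode proteases of photosystem II (PSII) repair, and kinases and a phosphatase that act on PSII or its antenna. They are the rows of the deposited expression table with the gene identifiers of FTSH1 (AT1G50250), FTSH5 (AT5G42270), FTSH2 (AT2G30950), FTSH8 (AT1G06430), DEG1 (AT3G27925), DEG5 (AT4G18370), DEG8 (AT5G39830), STN7 (AT1G68830), STN8 (AT5G01920) and TAP38 (AT4G27800). All 10 were found among 21593 listed genes, and all 10 passed the minimum of 10 normalized counts summed over the libraries, as did 20512 genes in all. RNA was sequenced from leaves of wild-type Col-0 plants aged 6 to 7 weeks and grown in short days, with 3 libraries in each of 5 conditions. The growth light control (GL) had 100 µmol of photons per square metre and second and was taken before any treatment. HL was 1000 in the same unit and lasted 15 min in HL15 and 60 min in HL60. Recovery samples had the full 60 min of HL and were then back in growth light, for 15 min in R15 and for 60 min in R60. The conditions follow each other in time and no growth light sample was taken at the later times, so the treatment and the time of harvest cannot be told apart.

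PSII is damaged by light, mainly at its D1 reaction centre protein, and is repaired in a cycle in which damaged D1 is removed and replaced while the other subunits are kept. The thylakoid FtsH complex is a membrane-bound ATP-dependent zinc protease that degrades D1 from the stromal side; it is built from type A subunits (FTSH1 and FTSH5) and type B subunits (FTSH2 and FTSH8), both types are needed, and members of a type can replace each other. DEG1, DEG5 and DEG8 are serine proteases of the thylakoid lumen that cut D1 in its lumenal loops. The kinase STN8 phosphorylates PSII core proteins, the kinase STN7 phosphorylates the light-harvesting antenna LHCII in state transitions, and the phosphatase TAP38 removes the phosphate from LHCII.

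The 4 FTSH genes fall into pairs of close paralogs, which matters both for their shared role and for how reads are assigned. FTSH1 and FTSH5 were 82.3% identical over their aligned coding sequences, FTSH2 and FTSH8 were 87.0% identical, and the 4 pairs across the types were 60.7% to 62.5% identical. The coding windows around the zinc-binding motif His-Glu-x-x-His, whose 15 bases are in capitals, show the difference between the types: the middle codon of the motif is for alanine in FTSH1 and FTSH5 and for valine in FTSH2 and FTSH8. Each window joins 51 coding bases over an intron and was read from the RefSeq annotation of the TAIR10.1 genome, within chr1:18615146-18615283 (minus strand) for FTSH1, chr5:16904253-16904384 (plus strand) for FTSH5, chr2:13176220-13176356 (plus strand) for FTSH2 and chr1:1960889-1961013 (minus strand) for FTSH8.
FTSH1: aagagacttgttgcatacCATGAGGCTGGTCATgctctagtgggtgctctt
FTSH5: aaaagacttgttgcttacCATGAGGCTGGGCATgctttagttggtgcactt
FTSH2: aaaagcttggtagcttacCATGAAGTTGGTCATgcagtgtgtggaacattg
FTSH8: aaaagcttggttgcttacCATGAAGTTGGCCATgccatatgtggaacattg
Within a type the windows differed at 6 bases (FTSH1 and FTSH5) or 5 bases (FTSH2 and FTSH8), and between the types at 14 to 19 bases. Despite this likeness few stretches were long enough to confuse a read: FTSH1 shared 7 of its 2543 31-base words with FTSH5, and FTSH2 shared 47 of its 2744 with FTSH8.

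Since all of these FTSH genes rose in HL60 and R15 against GL, the 250 bases before their annotated starts are also shown. The windows are chr1:18617156-18617405 (minus strand) for FTSH1, chr1:1963190-1963439 (minus strand) for FTSH8, chr5:16902225-16902474 (plus strand) for FTSH5 and chr2:13174029-13174278 (plus strand) for FTSH2, all in TAIR10.1, and that of FTSH8 overlaps the neighbouring gene AT1G06440. Capitals mark the letters ACGT, the core of binding sites of bZIP factors such as HY5, searched on both strands.
FTSH1: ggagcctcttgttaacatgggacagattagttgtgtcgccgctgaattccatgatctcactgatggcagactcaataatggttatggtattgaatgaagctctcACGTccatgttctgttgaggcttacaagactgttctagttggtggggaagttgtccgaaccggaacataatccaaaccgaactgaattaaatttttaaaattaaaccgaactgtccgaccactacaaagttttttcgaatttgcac
FTSH8: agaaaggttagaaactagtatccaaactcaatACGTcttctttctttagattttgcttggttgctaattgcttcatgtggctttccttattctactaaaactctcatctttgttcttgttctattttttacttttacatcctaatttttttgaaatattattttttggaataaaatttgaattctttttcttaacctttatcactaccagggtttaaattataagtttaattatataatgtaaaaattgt
FTSH5: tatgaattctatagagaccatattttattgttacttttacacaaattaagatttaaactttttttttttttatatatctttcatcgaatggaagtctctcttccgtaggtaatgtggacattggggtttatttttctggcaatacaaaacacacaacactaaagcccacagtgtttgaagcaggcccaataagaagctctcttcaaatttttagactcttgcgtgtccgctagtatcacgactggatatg
FTSH2: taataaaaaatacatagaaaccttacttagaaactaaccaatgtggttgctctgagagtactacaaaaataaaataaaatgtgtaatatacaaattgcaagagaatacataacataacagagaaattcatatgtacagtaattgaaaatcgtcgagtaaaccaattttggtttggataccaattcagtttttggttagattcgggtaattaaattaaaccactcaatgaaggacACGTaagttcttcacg
ACGT was in the windows of FTSH1, FTSH8 and FTSH2, not in that of FTSH5, and in 6 of the 10 genes altogether, against 44.1% of 27443 promoter windows of the same length. The heat shock element core GAANNTTC was in none of the 10 windows, and in 9.55% of all. The full G-box CACGTG, which contains ACGT, was in that of DEG5 only, and in 6.49% of all. TATAAA was in 4 of the 10 (FTSH5, DEG1, DEG8 and TAP38), against 47.3% of all.

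The values are normalized counts, that is Salmon read counts that the authors had already scaled between libraries. The totals were 16003876 to 17400974 in R60 and 17970464 to 20619828 in the other 4 conditions. The steps between low values gave an estimated depth of 14403180 to 28102714 reads per library. By the same estimate the least abundant member of a library had at least 643.6 reads. These figures are approximate, since the step came from single-transcript genes and values of other genes were often not whole multiples of it. Leaf markers were abundant in every library (RBCS1A at 202681 or more), and the root marker PYK10 reached 10.7 and the flower marker AG 37.1 at most. The seed marker SESA1 reached 156 in the recovery samples, and COBL9, RHD6, AP1 and CRU3 were not among the listed genes. In whole leaves, fewer cells of a type and less RNA per cell cannot be told apart. FTSH1, FTSH5, FTSH2, DEG5, STN8 and TAP38 overlap a gene on the opposite strand, and the strand of the libraries is not given in the sources used here, so reads of the overlap cannot be told apart. The mean of the overlapping genes listed was 0.0088% to 0.241% of that of FTSH1, FTSH5, FTSH2 and TAP38, 4.28% of that of DEG5 and 9.0% of that of STN8.

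The values are not per length between genes, since low values of single-transcript genes of any length shared 1 step in a library, so levels were divided by transcript length before genes were compared. Per kilobase of transcript, the FTSH genes were the most abundant of the set in every condition. In GL the order was FTSH2 (8688 ± 233 normalized counts per kb, SD, n = 3), FTSH5 (5821 ± 93.6), FTSH1 (3039 ± 199) and FTSH8 (2102 ± 37.3), followed by STN7 (1770 ± 43.6), DEG1 (1638 ± 63.2), TAP38 (1510 ± 93.3), STN8 (1391 ± 106), DEG8 (644 ± 47.1) and DEG5 (584 ± 27.8). The ranges of TAP38 and STN8 overlapped, as did those of DEG8 and DEG5, while the other neighbours in this order were separate. In HL60 FTSH2 (11461 ± 583 per kb) and FTSH5 (11459 ± 1903) were level, and in R15 FTSH5 (13210 ± 893) stood above FTSH2 (11412 ± 581) with no overlap. FTSH2 again led in R60 (9549 ± 1229 per kb, against 7800 ± 822 for FTSH5), with overlapping ranges. Among the other members, TAP38 (1884 ± 230 per kb) stood above DEG1 (1011 ± 170), STN8 (956 ± 150) and STN7 (906 ± 135) in R60, and the ranges of the last 3 overlapped.

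The type A genes FTSH1 and FTSH5 approximately doubled between the start of the experiment and 60 min of HL. FTSH1 had 7602, 7449 and 8404 normalized counts in GL, 8387, 9242 and 9549 in HL15, 19812, 14291 and 14644 in HL60, 14635, 17802 and 14732 in R15, and 9691, 7061 and 6988 in R60. Every HL60 and R15 library was above every GL and HL15 library, and R60 overlapped GL. FTSH5 had 14342, 14392 and 14768 in GL, 16024, 15591 and 15455 in HL15, 33967, 26479 and 25186 in HL60, 32071, 35429 and 31221 in R15, and 21795, 18260 and 18234 in R60. For FTSH5 the R60 libraries also stayed above all GL and HL15 libraries. Against GL, FTSH1 rose by a log2 fold change of 1.04 ± 0.15 (SE) in HL60 and 1.00 ± 0.15 in R15 (limma, Benjamini-Hochberg adjusted p = 7.45e-05 and 7.60e-05), and FTSH5 by 0.96 ± 0.12 and 1.18 ± 0.12 (adjusted p = 2.55e-05 and 2.89e-06). In R60 FTSH1 was at a log2 fold change of 0.00 ± 0.15 (adjusted p = 0.994), while FTSH5 remained raised by 0.42 ± 0.12 (adjusted p = 0.0129).

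The type B genes differed from each other in size of response. FTSH8 had 5621, 5545 and 5744 normalized counts in GL, 6253, 6758 and 6921 in HL15, 12687, 10026 and 9149 in HL60, 10461, 11634 and 9678 in R15, and 7343, 5709 and 5343 in R60. FTSH2 had 21630, 20544 and 20825 in GL, 25874, 24575 and 24515 in HL15, 29326, 26908 and 26868 in HL60, 26641, 29196 and 26911 in R15, and 26485, 21744 and 21012 in R60. For both genes HL15, HL60 and R15 were each wholly above GL, and R60 overlapped GL. Against GL, FTSH8 rose by 0.90 ± 0.13 on the log2 scale in HL60 and 0.91 ± 0.13 in R15 (limma, Benjamini-Hochberg adjusted p = 9.76e-05 and 6.72e-05), and FTSH2 by 0.40 ± 0.11 and 0.39 ± 0.11 (adjusted p = 0.0101 and 0.00907). The HL60 call of FTSH2 was lost with quantile normalization (adjusted p = 0.0561). HL60 replicate 1 was the highest of its group for all 4 FTSH genes, as was R60 replicate 1 of its own. Without HL60 replicate 1 the HL60 values against GL were 0.89 (FTSH1), 0.83 (FTSH5), 0.76 (FTSH8) and 0.36 (FTSH2), all still past the threshold, and without R60 replicate 1 the R60 value of FTSH5 was 0.33 (adjusted p = 0.0433).

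**Figure D1:**
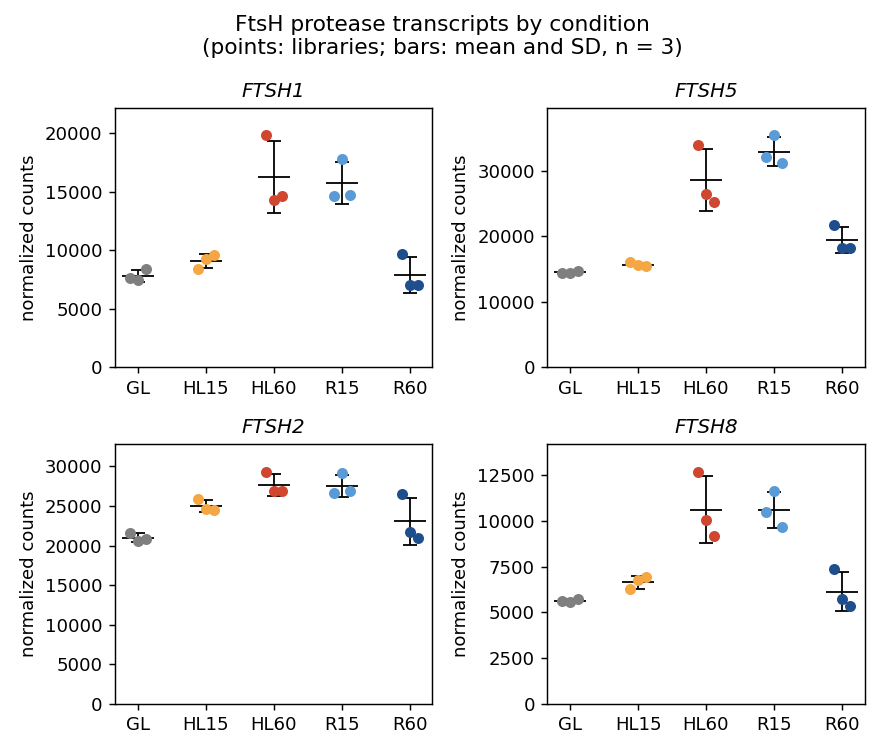
Normalized counts of the 4 FTSH genes (y axis, from 0) in GL, HL15, HL60, R15 and R60 (x axis). Points are libraries, bars the mean and SD of 3. FTSH1, FTSH5 and FTSH8 have their HL60 and R15 libraries above all GL libraries by a wide margin, FTSH2 by a smaller one, and HL60 replicate 1 is the top point of its group in each panel.

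The make-up of the FTSH transcript pool shifted with these changes. Per kilobase, FTSH2 made up 44.2 ± 1.06% of the pool in GL, 45.7 ± 1.25% in HL15, 34.8 ± 2.62% in HL60, 32.9 ± 0.788% in R15 and 42.1 ± 0.330% in R60 (SD, n = 3). FTSH5 made up 29.6 ± 0.450%, 27.8 ± 0.451%, 34.4 ± 1.19%, 38.1 ± 0.309% and 34.4 ± 0.981% in the same order, so it was the largest component in R15. FTSH1 ranged between means of 13.5% (R60) and 18.9% (HL60), and FTSH8 reached 11.9% at most (HL60).

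Ratios within a library do not depend on any scaling by 1 factor per library. Quantile normalization can change them, and the ratios were not examined under it. The summed type A to summed type B ratio averaged a log2 value of 0.21 ± 0.12 in HL60 and 0.35 ± 0.03 in R15, against -0.26 ± 0.06 in GL (SD, n = 3), and the libraries did not overlap. In HL15 the ratio was -0.35 ± 0.04 and in R60 it was -0.09 ± 0.03, again without overlap with GL, below it in HL15 and above it in R60. Each of these 4 comparisons gave p = 0.1 in the two-sided exact permutation test, the smallest that 3 against 3 libraries allow, and 0.133 after adjustment over 20 tests of ratios. Ratios within a type were examined after the values had been seen. FTSH8 to FTSH2 was higher in HL60 (-1.40 ± 0.17) and R15 (-1.38 ± 0.08) than in GL (-1.90 ± 0.04), without overlap (exact p = 0.1 each), and overlapped GL in HL15 (-1.91 ± 0.12, exact p = 0.9) and R60 (-1.92 ± 0.06, exact p = 0.8). FTSH5 to FTSH1 was 1.07 ± 0.07 in R15 and 1.31 ± 0.12 in R60, against 0.89 ± 0.07 in GL, also without overlap (exact p = 0.1 each), and overlapped GL in HL15 (0.79 ± 0.12, exact p = 0.3) and HL60 (0.82 ± 0.06, exact p = 0.2).

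The lumenal proteases did not follow the FTSH genes as a group. DEG1 had 2904, 2807 and 3031 normalized counts in GL, 3397, 3544 and 3414 in HL15, 2715, 2739 and 2211 in HL60, 2375, 2504 and 2393 in R15, and 2135, 1548 and 1713 in R60. All HL15 libraries were above GL, and all HL60, R15 and R60 libraries were below it. DEG1 was lower in R60 than in GL (log2 fold change -0.71 ± 0.11, limma, Benjamini-Hochberg adjusted p = 0.000117), and its values against GL in HL15 (0.24 ± 0.11, adjusted p = 0.123), HL60 (-0.20 ± 0.11, adjusted p = 0.180) and R15 (-0.27 ± 0.11, adjusted p = 0.0625) did not pass. It was also lower in HL60 than in HL15 (-0.44 ± 0.11, adjusted p = 0.00644). Against GL, R15 was called lower with upper quartile (-0.36, adjusted p = 0.0127) and quantile normalization (-0.51, adjusted p = 0.00175). Quantile normalization also gave a call in HL60 (-0.33, adjusted p = 0.0280). With only the conditions compared, R15 was called lower (adjusted p = 0.00599) and HL15 higher (adjusted p = 0.0110).

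DEG5 and DEG8 form a complex in the lumen and were the least abundant members per length. DEG5 had 796, 823 and 874 normalized counts in GL, 902, 755 and 775 in HL15, 961, 997 and 1051 in HL60, 951, 879 and 950 in R15, and 885, 654 and 715 in R60. DEG8 had 1164, 1005 and 1092 in GL, 1257, 1078 and 1142 in HL15, 1192, 1241 and 1366 in HL60, 1266, 1386 and 1448 in R15, and 1211, 1072 and 1111 in R60. Both had their HL60 and R15 libraries above all GL libraries, and overlapped GL in HL15 and R60. Against GL, DEG8 passed in R15 (log2 fold change 0.33 ± 0.09, limma, Benjamini-Hochberg adjusted p = 0.00834), a call that quantile normalization ended (0.13, adjusted p = 0.233). DEG5 passed against GL in no condition in the main fit, with a value of 0.27 ± 0.11 in HL60 (adjusted p = 0.0583). The HL60 value passed with equal library totals (0.28, adjusted p = 0.0277) and with only the conditions compared (adjusted p = 0.0338). Without R60 replicate 1 DEG5 passed as lower in R60 (adjusted p = 0.0307).

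The LHCII kinase STN7 fell below GL in the later conditions. It had 3806, 3647 and 3807 normalized counts in GL, 3993, 4106 and 4167 in HL15, 3045, 2802 and 2725 in HL60, 2360, 2442 and 2178 in R15, and 2221, 1651 and 1887 in R60. HL15 was wholly above GL, HL60 wholly below GL, and R15 wholly below HL60, while R60 overlapped R15. Against GL the log2 fold changes were 0.12 ± 0.10 in HL15 (limma, Benjamini-Hochberg adjusted p = 0.386), -0.39 ± 0.10 in HL60 (adjusted p = 0.00478), -0.69 ± 0.10 in R15 (adjusted p = 4.29e-05) and -0.98 ± 0.10 in R60 (adjusted p = 1.80e-06). With equal library totals the R60 value was -0.76 (adjusted p = 1.83e-05). The step from R15 to R60 was -0.29 ± 0.10 (limma adjusted p = 0.0284) and depended on the scaling. It was not called with upper quartile (-0.19, adjusted p = 0.115), quantile (-0.07, adjusted p = 0.628) or total scaling (-0.07, adjusted p = 0.596).

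The PSII core kinase STN8 fell less. It had 2557, 2485 and 2865 normalized counts in GL, 2430, 2412 and 2401 in HL15, 2012, 2449 and 2429 in HL60, 1910, 2303 and 2069 in R15, and 2139, 1619 and 1678 in R60. Each treated group was wholly below GL, by little in HL15 and HL60. The change passed in R15 (-0.33 ± 0.11, limma, Benjamini-Hochberg adjusted p = 0.0276) and R60 (-0.55 ± 0.11, adjusted p = 0.00132), and not in HL15 (-0.12 ± 0.11, adjusted p = 0.471) or HL60 (-0.20 ± 0.11, adjusted p = 0.184). The R15 call was lost without GL replicate 1, GL replicate 3, R15 replicate 1 or R15 replicate 3 (adjusted p up to 0.113).

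The LHCII phosphatase TAP38 was the only member called after 15 min of HL. It had 2442, 2195 and 2454 normalized counts in GL, 3054, 3590 and 3531 in HL15, 2980, 2897 and 2579 in HL60, 2461, 3169 and 2596 in R15, and 3266, 2557 and 3023 in R60. All treated libraries were above all GL libraries, in R15 by a margin of a few counts. It rose by 0.52 ± 0.12 on the log2 scale in HL15 (limma, Benjamini-Hochberg adjusted p = 0.00502) and by 0.31 ± 0.12 in R60 (adjusted p = 0.0405), and had 0.25 ± 0.12 in HL60 (adjusted p = 0.1001) and 0.21 ± 0.12 in R15 (adjusted p = 0.161). The R60 call was lost without GL replicate 1, 2 or 3 or R60 replicate 1 or 3 (adjusted p up to 0.145).

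**Figure D2:**
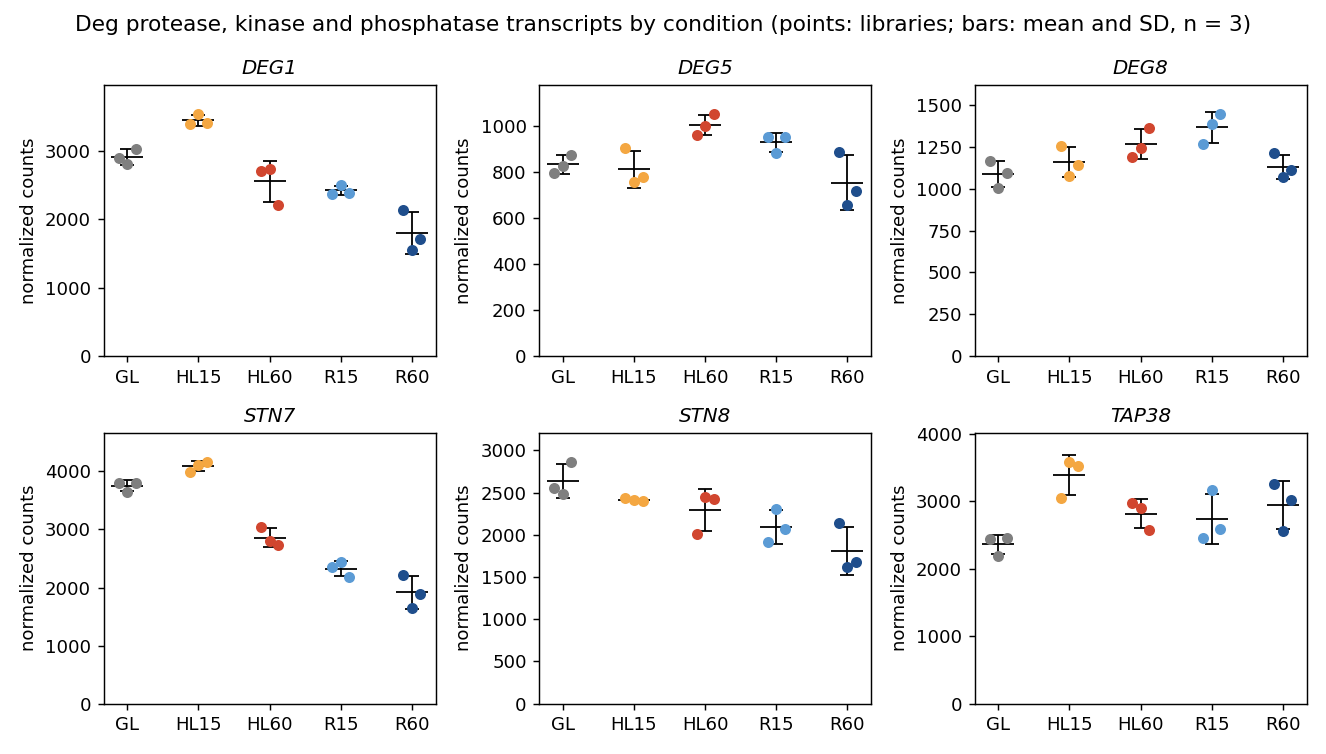
Normalized counts of DEG1, DEG5, DEG8, STN7, STN8 and TAP38 (y axes, from 0) in GL, HL15, HL60, R15 and R60 (x axis). Points are libraries, bars the mean and SD of 3. STN7 and DEG1 are highest in HL15 and lowest in R60, and all treated TAP38 libraries lie above GL.

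Kinase and opposing phosphatase were set against each other within each library. The log2 ratio of STN7 to TAP38 was 0.27 ± 0.10 in HL15, 0.02 ± 0.06 in HL60, -0.23 ± 0.16 in R15 and -0.62 ± 0.06 in R60, against 0.67 ± 0.06 in GL (SD, n = 3). As a ratio of normalized counts this is 0.650 in R60 and 1.59 in GL. Each condition was wholly below GL (exact permutation p = 0.1 each, adjusted p = 0.133). STN8 was set against PBCP, the phosphatase of PSII core proteins, with a log2 ratio of 1.69 ± 0.07 in HL15, 1.41 ± 0.17 in HL60, 1.27 ± 0.06 in R15 and 1.496 ± 0.09 in R60, against 1.75 ± 0.07 in GL. HL60, R15 and R60 were wholly below GL (exact p = 0.1 each, adjusted p = 0.133), and HL15 overlapped it (exact p = 0.2). PBCP itself was lower in R60 than in GL (log2 fold change -0.30 ± 0.11, limma adjusted p = 0.0462). That call is near the threshold, and the libraries overlapped (553 to 774 normalized counts in R60, 724 to 825 in GL).

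**Figure D3:**
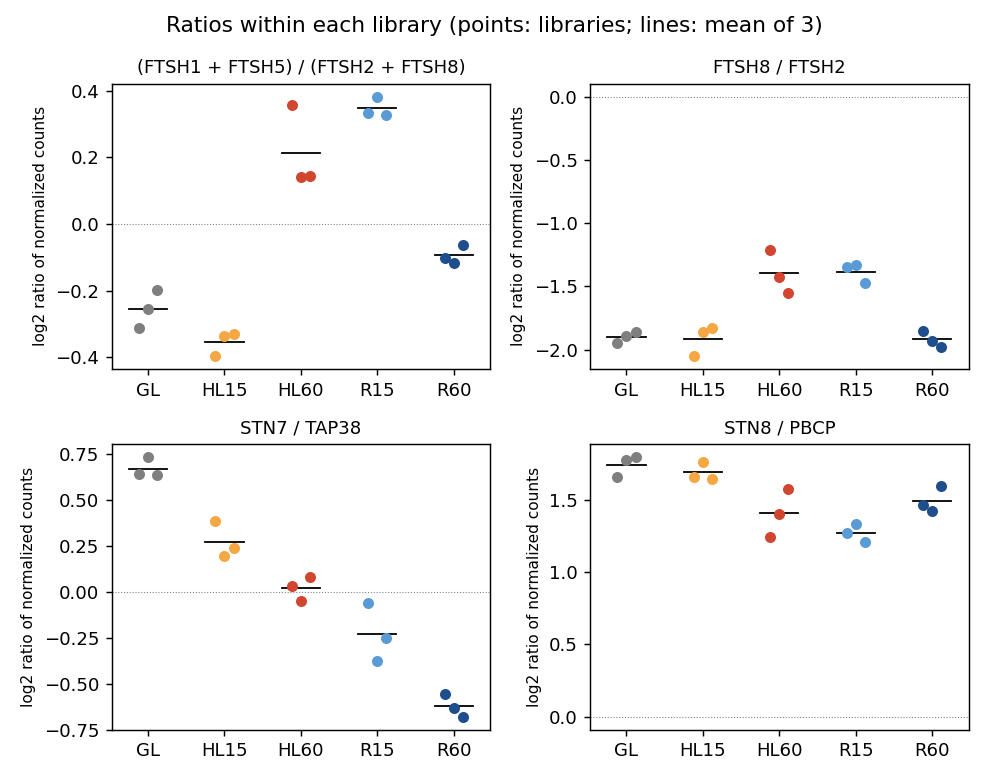
Log2 ratios of normalized counts within each library (y axes) in GL, HL15, HL60, R15 and R60 (x axis); points are libraries and lines the mean of 3. The type A to type B FTSH ratio and FTSH8 to FTSH2 are raised in HL60 and R15, and STN7 to TAP38 averages -0.62 in R60, against 0.67 in GL.

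Counted over the set and read against all tested genes, the members were called as follows; the 4 comparisons with GL share its 3 libraries. In HL15 against GL 1 of 10 was higher, where 11.4% of all tested genes were, and 0 were lower, where 13.2% of all were (limma, 3 members higher and 0 lower at an unadjusted p under 0.05). With only the HL15 and GL libraries in the fit, FTSH2, FTSH8 and DEG1 were also called. In HL60 against GL 4 were higher (19.4% of all) and 1 was lower (19.4% of all). FTSH1 alone was 2-fold or more higher there, as were 7.76% of all. In R15 against GL 5 were higher (22.9% of all) and 2 were lower (22.9% of all). FTSH1 and FTSH5 were 2-fold or more higher, as were 10.9% of all. In R60 against GL 2 were higher (21.4% of all) and 3 were lower (22.1% of all), shares near those of all genes. With equal library totals 4 members were higher and 3 lower in R60, where 30.2% of all genes were higher and 14.1% lower. The median log2 fold change of the members was 0.26 in HL60 and 0.27 in R15, and that of all tested genes 0.00 and 0.01.

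**Figure D4:**
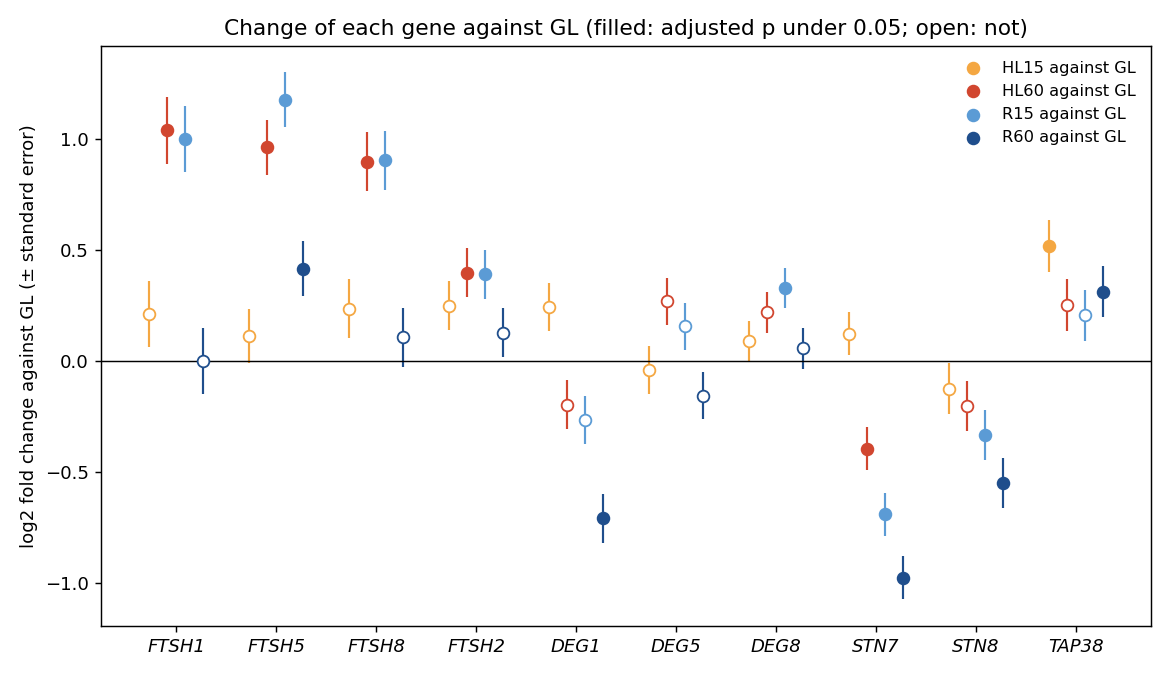
Log2 fold change against GL with its standard error (y axis) for each of the 10 genes (x axis) in HL15, HL60, R15 and R60 (colours). Filled points have a limma adjusted p under 0.05. FTSH1, FTSH5 and FTSH8 are near 1 in HL60 and R15, FTSH2 near 0.4, and STN7 reaches -0.98 in R60.

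Changes between successive conditions locate the steps. In HL60 against HL15 4 members were higher (18.3% of all), namely FTSH5 (0.85 ± 0.12, limma, Benjamini-Hochberg adjusted p = 0.000122), FTSH1 (0.83 ± 0.15, adjusted p = 0.000691), FTSH8 (0.66 ± 0.13, adjusted p = 0.00152) and DEG5 (0.31 ± 0.11, adjusted p = 0.0350), and 2 were lower (17.4% of all), STN7 (-0.52 ± 0.10, adjusted p = 0.000873) and DEG1. FTSH2 was not among them (0.15 ± 0.11, adjusted p = 0.321). The DEG5 call was lost without HL15 replicate 2 or 3 or HL60 replicate 2 or 3 (adjusted p up to 0.131), and with quantile normalization, without the variance trend or with only the conditions compared (adjusted p = 0.0514 to 0.0606).

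The step from high light to the first 15 min of recovery gave 1 call in the set. In so small a set neither 0 higher members nor 1 lower member can be told apart from the shares of all genes. In R15 against HL60 0 members were higher (11.6% of all; limma, 0 at an unadjusted p under 0.05) and 1 was lower (11.7% of all), STN7 (-0.30 ± 0.10, adjusted p = 0.0381). The FTSH genes had values of -0.04 ± 0.15 (FTSH1), 0.22 ± 0.12 (FTSH5), -0.01 ± 0.11 (FTSH2) and 0.01 ± 0.13 (FTSH8). The STN7 call was lost without HL60 replicate 1 or 2 or any 1 of the R15 replicates (adjusted p up to 0.145), and FTSH5 passed without HL60 replicate 1 (0.35, adjusted p = 0.0307).

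The fall of the FTSH transcripts lay between R15 and R60. In R60 against R15 0 members were higher (20.8% of all; limma, 0 at an unadjusted p under 0.05) and 7 were lower (20.2% of all): FTSH1 (-1.001 ± 0.15, adjusted p = 0.000114), FTSH8 (-0.80 ± 0.13, adjusted p = 0.000281), FTSH5 (-0.76 ± 0.12, adjusted p = 0.000212), DEG1 (-0.44 ± 0.11, adjusted p = 0.00516), DEG5 (-0.31 ± 0.11), STN7 (-0.29 ± 0.10) and DEG8 (-0.27 ± 0.09). FTSH1 was lower by 2-fold or more, as were 8.05% of all. FTSH2 (-0.26 ± 0.11, adjusted p = 0.0692) and STN8 (-0.22 ± 0.11, adjusted p = 0.150) missed the threshold, and TAP38 had 0.11 ± 0.12 (adjusted p = 0.499). The count fell to 4 with equal library totals (1 higher, TAP38, and 3 lower, where 31.2% of all genes were higher and 12.7% lower), and to 4 without R60 replicate 2 or without R60 replicate 3; FTSH1, FTSH5 and FTSH8 passed in each of these settings.

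Over the whole hour of recovery, R60 against HL60, 0 members were higher (23.0% of all; limma, 0 at an unadjusted p under 0.05) and 7 were lower (21.4% of all). These were FTSH1 (-1.04 ± 0.15, adjusted p = 6.44e-05), FTSH8 (-0.79 ± 0.13), STN7 (-0.58 ± 0.10), FTSH5 (-0.55 ± 0.12), DEG1 (-0.51 ± 0.11), DEG5 (-0.43 ± 0.11) and STN8 (-0.35 ± 0.11). FTSH1 again passed the 2-fold limit, as did 8.07% of all. With equal library totals, which moved the median of all genes by 0.20 on the log2 scale, DEG5 (-0.22, adjusted p = 0.0643) and STN8 (-0.14, adjusted p = 0.238) no longer passed, and 32.3% of all genes were higher and 14.0% lower. FTSH5 was lost with quantile normalization (-0.24, adjusted p = 0.211), and with only the conditions compared (adjusted p = 0.0769). STN8 was lost in the same settings (adjusted p = 0.0888 and 0.112) and without HL60 replicate 2 or 3 or R60 replicate 2 or 3 (adjusted p up to 0.103).

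The closest patterns were described by Pearson's r of log2 values over the 15 libraries, among 12825 genes with a mean of 100 or more. FTSH1 and FTSH8, of different types, were each other's nearest gene (r = 0.99), ahead of their own paralogs (0.91 for FTSH1 with FTSH5 and for FTSH2 with FTSH8). The nearest to FTSH5 was SPPA, a thylakoid protease (0.98), and to FTSH2 AT1G51110 (0.94). For DEG1 it was PGR5-LIKE A, a protein of cyclic electron flow (0.98), and DEG1 also had r = 0.94 with STN7. The nearest to STN7 was AT3G54360 (0.99), to STN8 AT1G53560 (0.95), to TAP38 CYP83A1, a cytochrome P450 of glucosinolate synthesis (0.93), to DEG5 AT5G16140 (0.96) and to DEG8 AT1G80030 (0.91).

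For comparison 60 other genes were listed: 27 for D1 synthesis and for PSII assembly and repair, 19 other FtsH, FtsHi and Deg genes of plastids, mitochondria and other sites, 4 phosphorylation partners, 6 genes of grana shape and 4 linked to FtsH. In HL15 against GL 2 of the 60 were higher, both mitochondrial FtsH genes, and 11 lower (limma, adjusted p under 0.05; 11.4% and 13.2% of all tested genes). In HL60 6 were higher and 18 lower (19.4% and 19.4% of all), and in R15 12 and 18 (22.9% and 22.9% of all). In R60 3 were higher and 36 lower (21.4% and 22.1% of all), with a median log2 fold change of -0.33. With equal library totals 12 were higher and 27 lower in R60 (30.2% and 14.1% of all). Genes for D1 synthesis and insertion were all lower in R60 (8 of 8), among them HCF173, a factor for translation of the D1 messenger, at 1470 normalized counts in R60 against 6655 in GL (-2.20 ± 0.14, adjusted p = 3.94e-08), and the one-helix protein OHP1 (-1.01 ± 0.12). With equal library totals 6 of the 8 were lower. Of 19 assembly and repair factors 12 were lower in R60 and 0 higher (9 and 3 with equal totals), the zinc-finger protein LQY1 (-1.10 ± 0.13) and the lumenal protein TLP18.3 (-1.01 ± 0.11) by 2-fold or more. In R60 FTSH1, FTSH2 and FTSH8 had values of 0.00 to 0.13 against GL, and FTSH5 had 0.42 (limma adjusted p = 0.0129). FTSH2 was called higher there with quantile normalization (0.34, adjusted p = 0.0234) and with equal library totals (0.34, adjusted p = 0.00859).

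Of the other FtsH genes, some fell and some rose in the same conditions, and no test of a difference in course from the thylakoid 4 was run. The plastid FTSH9 was lower in HL60 (-0.86 ± 0.14), R15 (-0.98 ± 0.14) and R60 (-1.51 ± 0.14, limma adjusted p = 1.15e-06), and FTSH11 was lower in the same conditions. The mitochondrial FTSH10 was higher in HL15 (0.87 ± 0.09), HL60 (1.25 ± 0.09) and R15 (1.13 ± 0.09), with 1626 normalized counts in HL60 against 684 in GL. The plastid FTSH12 was higher in R15 (0.62 ± 0.18, limma adjusted p = 0.0115), as were 3 of 5 FtsHi genes, which encode FtsH-like proteins without an active zinc site. FTSH6 did not exceed 25.9 normalized counts in any library. AT5G02160, listed with the genes linked to FtsH, was lower in HL60 (-1.33 ± 0.14), R15 (-1.68 ± 0.14) and R60 (-1.62 ± 0.14). Among the phosphorylation partners, the chloroplast sensor kinase CSK (-1.12 ± 0.11 in R15 and -1.14 ± 0.11 in R60) and the calcium sensor CAS, a thylakoid phosphoprotein (-1.08 ± 0.09 in R60), fell by 2-fold or more. All 4 partners, PBCP among them, were lower in R60, and 3 were with equal library totals.

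**Figure D5:**
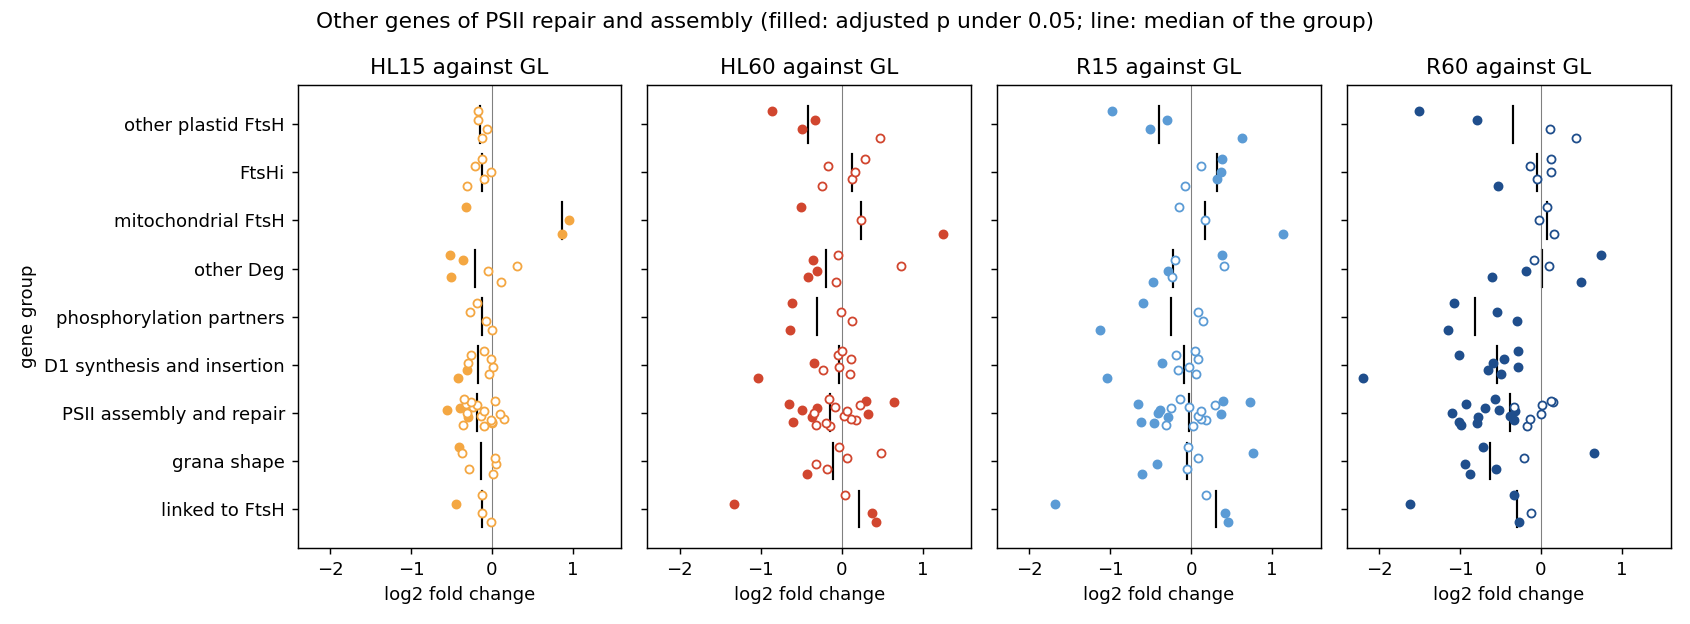
Log2 fold change against GL (x axes) of the listed genes by group (y axis) in HL15, HL60, R15 and R60, 1 point per gene, filled where the limma adjusted p is under 0.05, with the group median as a line. FTSH6, near 0 counts, is left out. In R60 all 8 genes of D1 synthesis and insertion lie below 0.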

How the data were processed

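RNA was sequenced from 15 leaf libraries, 3 per condition, grouped by their titles. The authors quantified reads with Salmon (0.12) on TAIR cDNA sequences (TAIR10) and used DESeq2. The deposited values are normalized counts, a signal already scaled between libraries, not raw counts and not per length of a gene. Divided by the smallest step of their library, low values came out whole (within 0.01) for 100% of single-transcript genes but for 60.0% to 63.3% of all genes, so no count model was applied. The depth estimated from the steps covers counting error only. Differential expression was tested with limma (3.58.1, R 4.3.3) on log2(normalized count + 1) with a variance trend, all 15 libraries in 1 fit and Benjamini-Hochberg adjustment over 20512 genes with a sum of 10 or more, and fold changes are on that scale. A gene was called at an adjusted p under 0.05, and a second rule added a 2-fold change. Ratios within libraries were compared with two-sided exact permutation tests. Other scalings, pseudocounts (0.5 and 5), low-value filters, fits without the variance trend, with only the conditions compared or with a replicate block, and fits without each library were tried. The test was also run on simulated counts with the same spread for every gene. That setting is simpler than these data, so no error rate is taken from it. Levels per kb used the longest RefSeq transcript of TAIR10.1. Sequences came from the RefSeq TAIR10.1 genome. The members and gene lists were chosen with earlier results of these data known. All members were named, the listed genes if called with a 2-fold change against GL at a mean of 100 or more, together with a few named beyond this rule after their values were seen (FTSH11, FTSH12, FTSH6 and PBCP), and for each member the nearest of the 3 most similar genes. The replicates are biological per the methods. Whether the replicate numbers pair libraries across conditions was not settled. Correlations of deviations were -0.27 to 0.32 for libraries of the same number and -0.36 to 0.32 for the others. With 3 libraries per condition this check cannot exclude pairing. No 2 replicates agreed within sampling noise (chi-square per degree of freedom 1.57 to 92.4, median 17.8). The lowest value was that of HL15 replicates 2 and 3, which were thus much alike. HL15 replicate 1 differed from them with values of 39.7 and 33.6.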

Additional observations from a re-analysis of the deposited data

How the results depend on the processing

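Of 1280 values of members under alternative settings, 1163 kept their direction and their side of the threshold, 62 lost a call, 27 gained one and 28 changed sign, each of the last at a value that passed in neither setting. Members called in R60 against R15, 7 lower as reported, were 4 under each other scaling: 4 lower with upper quartile scaling (25.3% of all genes higher and 16.4% lower), and 1 higher and 3 lower with quantile (22.0% and 17.7%) or total scaling (31.2% and 12.7%). They were 0 in R15 against HL60 without the variance trend or with only the conditions compared, in place of 1, and 4 in HL15 against GL with only the conditions compared, in place of 1. With the 2-fold rule the counts were 0 in HL15, 1 in HL60, 2 in R15 and 0 in R60 against GL, 0 in HL60 against HL15, 0 in R15 against HL60, 1 in R60 against R15 and 1 in R60 against HL60. Leaving out 1 library gave 0 to 1 calls in R15 against HL60 and 4 to 9 in R60 against R15. The replicate block gave 1, 5, 7 and 4 members in HL15, HL60, R15 and R60 against GL, and changed no call but that of TAP38 in R60 (adjusted p = 0.0621). The share of higher genes among all calls moved by over 10 points only with total scaling in the R60 comparisons (68.2%, 71.1% and 69.7% against GL, R15 and HL60, in place of 49.2%, 50.8% and 51.8%). Signs changed with upper quartile scaling for FTSH1 in R60 against GL (-0.00181) and FTSH8 in R15 against HL60 (-0.0617). With quantile normalization they changed for FTSH5 in HL15 (-0.0922), DEG5 (-0.00335) and TAP38 (-0.0590) in R15 against GL, and FTSH2 in R15 (0.151) and R60 (0.0516) against HL60. With total scaling, added after the lower R60 totals were seen, they changed for DEG5 in R60 against GL (0.0593), FTSH8 in R15 against HL60 (-0.00468) and DEG8 in R60 against HL60 (0.0430). Without 1 library the ranges crossing 0 against GL were -0.118 to 0.00936 (DEG5, HL15), -0.152 to 0.0834 (FTSH1, R60) and -0.0293 to 0.200 (FTSH8, R60). Against HL60 they were -0.130 to 0.114 (FTSH1), -0.0478 to 0.0356 (FTSH2), -0.0948 to 0.141 (FTSH8) and -0.155 to 0.0278 (TAP38) in R15 and -0.0171 to 0.159 (TAP38) in R60, and -0.127 to 0.0145 for STN8 in HL60 against HL15. For FTSH8 to FTSH2 they were -0.0584 to 0.0537 in HL15 and -0.0552 to 0.00719 in R60 against GL. The cause was not tested. Depth limits little here by the estimate of 643.6 reads for the lowest member value, which is approximate for genes with more than 1 transcript. The 3 libraries per condition limit the exact tests to p = 0.1.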
